A study of Mus musculus with 2 samples.

Results

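Esrrb, Kcne1, Kcnq1, Bsnd, Hmx2 and Enpep, 6 genes tied to the marginal cells of the cochlea, were taken by gene symbol from the 32285 genes of 2 single-cell libraries. All 6 were found in both libraries. The tested library, Ptch1cKO, came from mouse embryos at E16.5 with the genotype Emx2Cre;Ptch1f/f, in which Cre made from the Emx2 locus acts on floxed copies of Ptch1. The other came from wild-type (WT) embryos of the same age, and both had a mixed 129/SvEv and C57BL/6N background. Each library pooled 8 cochleae, so there is 1 library per genotype, no replicate check and no test. Intervals given below are 95% and cover counting error only.

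Marginal cells are the epithelial layer of the stria vascularis that faces the endolymph, the potassium-rich fluid of the cochlear duct. They take up potassium through their basolateral membrane and pass it into the endolymph through an apical channel. Kcnq1 encodes the pore of that channel and Kcne1 its accessory subunit. Bsnd encodes barttin, a subunit of basolateral chloride channels. Esrrb is an orphan nuclear receptor required in mice for marginal cell ion transport genes, Hmx2 is a homeobox transcription factor of inner ear development, and Enpep encodes aminopeptidase A, a membrane enzyme that trims angiotensin II and is also known from pericytes. Ptch1 encodes the receptor that holds the Hedgehog pathway off when no ligand is bound.

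On the GRCm38 (mm10) assembly, GENCODE vM21 places Esrrb at chr12:86361117-86521628 on the plus strand. Kcne1 lies at chr16:92345982-92359468 on the minus strand and Bsnd at chr4:106483456-106492283 on the minus strand. Enpep lies at chr3:129269175-129332720 on the minus strand, and Hmx2 at chr7:131548773-131558014 on the plus strand, where it overlaps Fgfr2 on the opposite strand. Kcnq1 lies at chr7:143106362-143427042 on the plus strand and overlaps its antisense transcript Kcnq1ot1. Whether strand was used in counting is not stated in the labels or headers, so the split of reads between these overlapping genes is uncertain, although each has a row of its own in the files. The promoters of Esrrb, Hmx2 and Enpep, each 300 bases around a transcription start in RefSeq (GRCm38.p6), are shown for genes that were at least 2-fold lower in the Ptch1cKO epithelium both with and without the WT barcode groups described below. Capitals mark AGGTCA, the core site that nuclear receptors of the Esrrb family can bind.
Esrrb, chr12:86360867-86361166, plus strand: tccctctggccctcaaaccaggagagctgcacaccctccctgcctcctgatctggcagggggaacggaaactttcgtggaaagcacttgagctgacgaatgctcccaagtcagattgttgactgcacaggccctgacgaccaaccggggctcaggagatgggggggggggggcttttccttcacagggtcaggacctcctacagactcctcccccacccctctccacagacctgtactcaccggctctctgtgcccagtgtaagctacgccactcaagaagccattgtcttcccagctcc
Hmx2, chr7:131548507-131548806, plus strand: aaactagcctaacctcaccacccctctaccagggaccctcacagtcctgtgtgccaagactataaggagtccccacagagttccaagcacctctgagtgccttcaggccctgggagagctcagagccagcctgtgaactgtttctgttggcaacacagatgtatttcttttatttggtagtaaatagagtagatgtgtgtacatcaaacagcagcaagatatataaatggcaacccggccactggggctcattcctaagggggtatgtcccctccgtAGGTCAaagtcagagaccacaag
Enpep, chr3:129332700-129332999, minus strand: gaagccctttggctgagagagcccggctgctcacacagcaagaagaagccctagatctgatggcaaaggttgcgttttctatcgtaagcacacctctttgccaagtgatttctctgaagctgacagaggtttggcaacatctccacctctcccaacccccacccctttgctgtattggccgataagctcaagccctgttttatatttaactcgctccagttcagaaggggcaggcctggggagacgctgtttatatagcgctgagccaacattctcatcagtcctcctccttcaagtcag
AGGTCA, sought on both strands, stood in the Hmx2 promoter 27 bases after the start and in neither of the other sequences above. Of all 32851 RefSeq promoters of that length, 5340 (16.3%) held it. The longer letters TCAAGGTCA stood in 139 of them (0.423%) and in none of the members' promoters in the table. The second Esrrb and Hmx2 promoters of the table, at chr12:86421394-86421693 and chr7:131554043-131554342, held neither. These matches describe letters, not binding.

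The Ptch1cKO library held 12326 barcodes with a median of 6524.5 UMIs, and the WT library 6500 barcodes with a median of 7333 UMIs. After filtering, 8671 Ptch1cKO and 6109 WT barcodes were kept, with lowest totals of 1000 and 3352 UMIs. Barcodes were clustered with the 6 genes left out of the features, and clusters were named from marker sets that hold none of them. The epithelium took 2055 Ptch1cKO barcodes (23.7%, median 3777 UMIs) and 1609 WT barcodes (26.3%, median 7710 UMIs). The libraries shared 25 barcode sequences, of which 17 were kept in both, and only 1 of those kept ones, in WT, carried a UMI of the 6 genes. Epithelial Ptch1 summed to 184 CPM (a gene's UMIs over all UMIs of the class, on the usual CPM scale) in Ptch1cKO and 30.0 CPM in WT, Gli1 20.0 and 1.90 CPM, and Hhip 14.8 and 1.79 CPM. These are Hedgehog target genes, and counts from the 3′ end of Ptch1 do not check the deletion of its floxed part.

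Some WT barcodes stood apart and held most of the Esrrb, Kcne1 and Bsnd UMIs and 46.8 to 49.8% of those of Kcnq1, Hmx2 and Enpep. In 6 WT fine clusters, 533 barcodes in all, the median gene varied between barcodes by 1.04 to 1.08 times what sampling from 1 shared profile would give. The other 34 WT clusters lay between 1.15 and 2.77, and the 35 other Ptch1cKO clusters between 1.15 and 5.34. One further group of 40 Ptch1cKO barcodes, at 1.098, also lay under the limit of 1.1, which was set after the values were seen. These are called low-spread groups here. In the 6 WT groups 99.5 to 100% of barcodes carried over 5 UMIs per 10000 from genes of other lineages, and 16.7 to 76.7% carried both Xist and a Y-linked UMI. The median of that last share was 51.1% in these groups and 4.62% in the other WT clusters, which reached up to 29.9%. The low-spread group with the most UMIs of the 6 genes, of 60 WT barcodes, was at 16.7%, within that range. Such mixed barcodes were common outside these groups too, at 74.2% of the remaining Ptch1cKO and 91.5% of the remaining WT epithelial barcodes. Haemoglobin genes, which mark RNA from blood, took 0.025% of the epithelial UMIs in Ptch1cKO and 0.650% in WT. The part of the low-spread groups and of mixed barcodes in the results was not tested, and the main results are given with and without the low-spread groups.

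**Figure D1:**
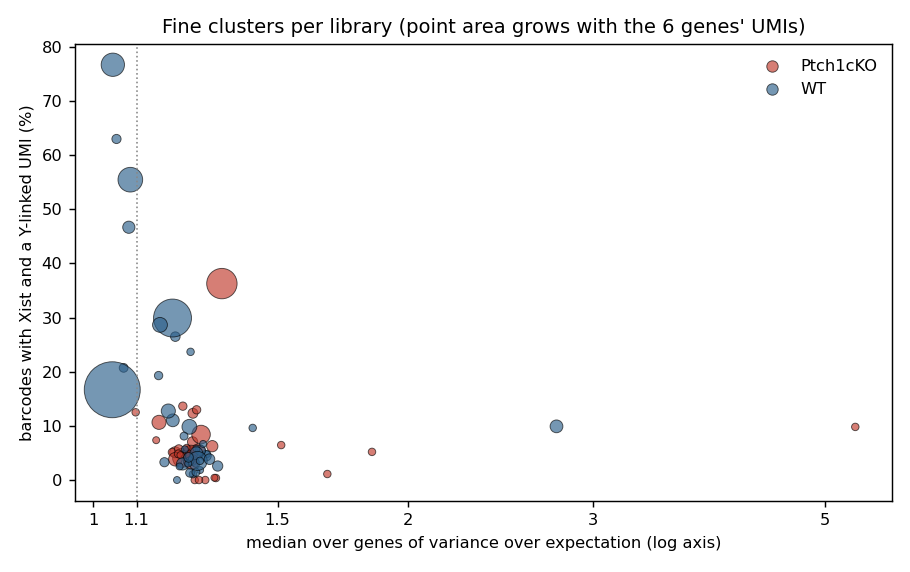
Each point is a fine cluster of 1 library with at least 20 barcodes. The x axis (log) gives the median over genes of the variance between barcodes over that expected from 1 shared profile, the y axis the share of barcodes with both Xist and a Y-linked UMI, and the point area grows with the summed UMIs of the 6 genes. The dotted line marks the limit of 1.1. The largest point, of 60 WT barcodes, lies at 1.04 and 16.7%.

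All 6 genes had lower CPM in the Ptch1cKO epithelium than in the WT epithelium. The transcription factor genes come first. Esrrb had 15 UMIs in 5 Ptch1cKO barcodes, or 0.739 CPM (0.414 to 1.22), against 136 UMIs in 79 WT barcodes, or 8.09 CPM (6.79 to 9.57). Hmx2 had 9 UMIs in 6 Ptch1cKO barcodes, or 0.443 CPM (0.203 to 0.842), against 65 UMIs in 47 WT barcodes, or 3.87 CPM (2.99 to 4.93). Neither pair of intervals overlapped. The ratio of Ptch1cKO over WT was 0.091 (0.050 to 0.16) for Esrrb and 0.115 (0.050 to 0.23) for Hmx2.

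The channel genes were also lower. Kcne1 had 16 UMIs in 11 Ptch1cKO barcodes, or 0.788 CPM (0.451 to 1.28), against 87 UMIs in 52 WT barcodes, or 5.18 CPM (4.15 to 6.39), a ratio of 0.152 (0.083 to 0.26). Kcnq1 had 25 UMIs in 20 Ptch1cKO barcodes, or 1.23 CPM (0.797 to 1.82), against 57 UMIs in 47 WT barcodes, or 3.39 CPM (2.57 to 4.39), a ratio of 0.363 (0.22 to 0.59). Bsnd was close to undetected, with 1 UMI in Ptch1cKO and 12 UMIs in 9 WT barcodes, a ratio of 0.069 with the wide interval of 0.0016 to 0.47. Enpep, the enzyme gene, had 93 UMIs in 20 Ptch1cKO barcodes, or 4.58 CPM (3.70 to 5.61), against 436 UMIs in 178 WT barcodes, or 25.9 CPM (23.6 to 28.5). Its ratio was 0.177 (0.14 to 0.22).

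Thus 6 of 6 genes were at least 2-fold lower in the Ptch1cKO epithelium, as were 12.0% of the 16299 genes with at least 10 UMIs there, while 5.63% were at least 2-fold higher. Without the low-spread groups, 2016 Ptch1cKO and 1136 WT epithelial barcodes were left, and 3 of the 5 genes with a ratio were at least 2-fold lower, against 9.02% of 15861 genes lower and 5.96% higher. Hmx2 kept nearly the same ratio, 0.138 (0.059 to 0.29), with 9 UMIs in Ptch1cKO and 38 in WT. Enpep had 92 and 168 UMIs, a ratio of 0.320 (0.25 to 0.41), and Esrrb 15 and 22 UMIs, a ratio of 0.398 (0.19 to 0.80). Kcnq1 had 25 UMIs in each library and a ratio of 0.584 (0.32 to 1.06). Kcne1 had 16 UMIs in Ptch1cKO and 9 in WT, a ratio of 1.04 (0.43 to 2.67), so its difference between the libraries rested on the low-spread groups. With every mixed barcode left out, only 521 Ptch1cKO and 97 WT epithelial barcodes remained. Of the 4 genes with at least 10 UMIs there, 3 were at least 2-fold lower, against 8.86% of 12804 genes lower and 6.96% higher. Kcne1 was then at 1.51 (8 UMIs in Ptch1cKO and 2 in WT). Without the low-spread groups Bsnd had 1 UMI in Ptch1cKO and 0 in WT, under the floor of 3 counts, and has no ratio. With 1 library per genotype, fewer cells of a type and less RNA per cell cannot be told apart in these sums.

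**Figure D2:**
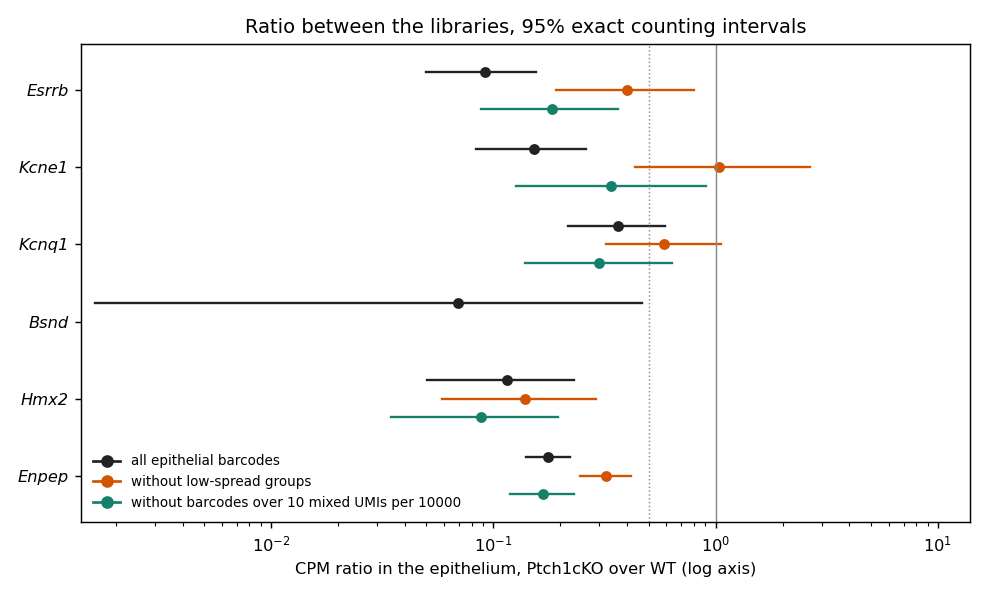
Ratio of epithelial CPM, Ptch1cKO over WT, on a log axis, with 95% exact counting intervals, for all epithelial barcodes, without the low-spread groups, and without barcodes over 10 mixed UMIs per 10000. The solid line marks equal levels and the dotted line a 2-fold lower level. Kcne1 moves from 0.152 to 1.04 once the low-spread groups are left out, while Hmx2 stays at 0.138. Bsnd is drawn only where a count passes the floor.

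The WT counts were densest in 1 cluster. Cluster 25, led by Oc90, Cldn4 and Lrp2 against other classes, held 60 WT and 0 Ptch1cKO barcodes and is one of the low-spread groups. It held 94 of the 152 Esrrb UMIs in the WT library (61.8%), 68 of 99 Kcne1 UMIs (68.7%) and 9 of 12 Bsnd UMIs (75.0%). For Kcnq1 it held 29 of 79 (36.7%), for Hmx2 23 of 76 (30.3%) and for Enpep 207 of 623 (33.2%). Within it Esrrb reached 146 CPM and was detected in 44 of 60 barcodes, Kcne1 in 34 and Kcnq1 in 21. All 6 low-spread WT groups together held 124 Esrrb, 81 Kcne1, 37 Kcnq1, 12 Bsnd, 36 Hmx2 and 310 Enpep UMIs of the WT library.

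Cluster 25 also had high levels of other marginal cell genes, but it carried markers of other types as well and took no cell type name beyond epithelium. Among 12 epithelial clusters it ranked highest for Atp1b2 (175 CPM, against 21.8 CPM in the other epithelium), a sodium pump subunit, and for Wnk2 (57.4 and 16.0 CPM), while Shroom3 had 0 UMIs, and Slc12a2 (132 and 148 CPM) and Heph (20.2 and 24.4 CPM) were not above the other epithelium. Dct (1598 and 26.2 CPM) and Pmel (844 and 12.1 CPM), which are pigment cell genes, and C1qc (51.2 and 4.99 CPM), a macrophage gene, were likewise highest there. For the whole lists, 6 of 10 marginal cell markers, 6 of 7 pigment cell markers and 7 of 7 macrophage markers reached 10 CPM in it, as did 9 of 9 mesenchyme, 6 of 6 glia, 6 of 7 neuron and 6 of 8 medial floor markers. The counts of Esrrb varied between its barcodes 1.05 times as much as sampling from 1 profile gives, and those of Kcne1 1.497 times. At this resolution no cluster was named from the marginal cell markers. In the finer clustering 1 cluster of 90 Ptch1cKO barcodes, with a median of 1692 UMIs, scored best for them. Its 10 leading genes against other classes, with Gm26917, Ush1c and Adamts19 first, held none of these markers but held Tecta, a medial floor marker. It held 1 Enpep UMI and 0 UMIs of the other 5 genes, and at this depth those 0 counts do not show absence.

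**Figure D3:**
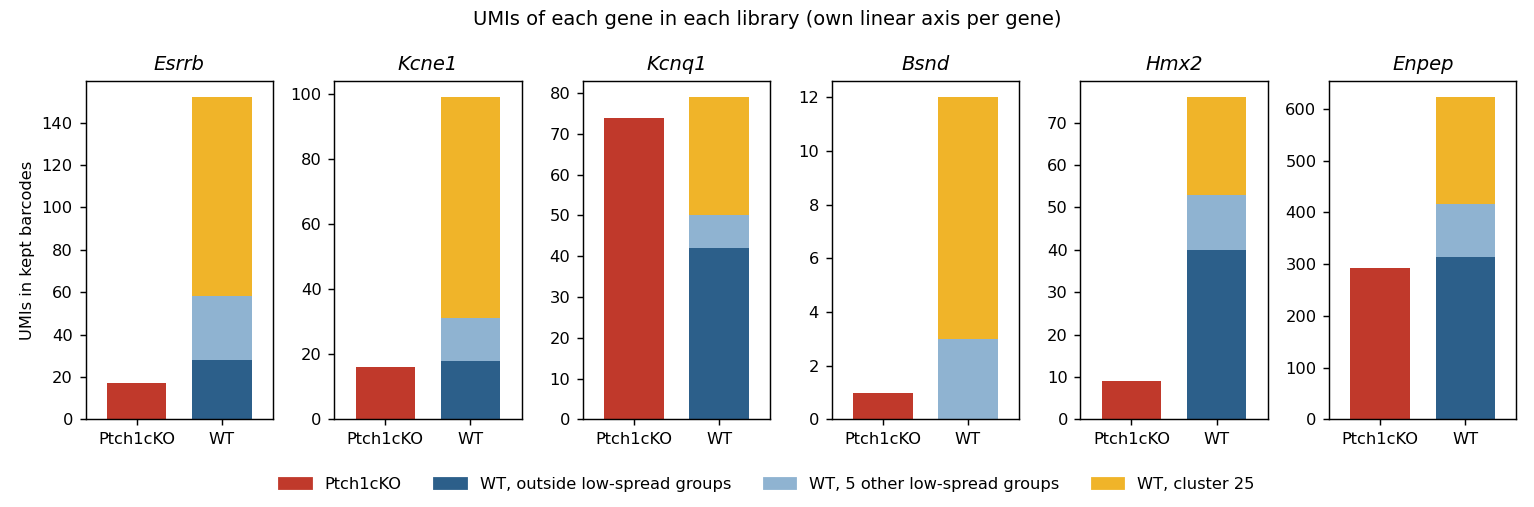
UMIs of each gene in the kept barcodes of each library, on a linear axis of its own per gene. The WT bar is split into cluster 25, the 5 other low-spread groups and the remaining barcodes. For Esrrb the WT library held 152 UMIs, 124 of them in low-spread groups, beside 17 in Ptch1cKO.

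Outside the low-spread groups the roof-like epithelium, which lies over the cochlear duct, held most of the WT epithelial Esrrb, Hmx2 and Enpep UMIs that were left. Cluster 20, led by Oc90, Otx2 and Ecel1, holds 91 Ptch1cKO barcodes (median 20750 UMIs) and 107 WT barcodes (median 6269 UMIs). Enpep had 87 UMIs in 14 Ptch1cKO barcodes (26.2 CPM) against 133 UMIs in 55 WT barcodes (124 CPM), a ratio of 0.211 (0.16 to 0.28). Hmx2 had 7 UMIs in 4 Ptch1cKO barcodes (2.11 CPM) against 33 UMIs in 20 WT barcodes (30.8 CPM), a ratio of 0.0685 (0.026 to 0.16). Esrrb had 13 UMIs in 3 Ptch1cKO barcodes (3.92 CPM) against 18 UMIs in 14 WT barcodes (16.8 CPM), a ratio of 0.233 (0.11 to 0.50). Kcnq1 had 5 UMIs in Ptch1cKO and 9 in WT, a ratio of 0.179 (0.047 to 0.60). Kcne1 ran the other way, with 9 UMIs in Ptch1cKO and 1 in WT, a ratio of 2.91 whose interval of 0.40 to 127 holds equality. In this cluster 36.3% of Ptch1cKO and 29.9% of WT barcodes carried both Xist and a Y-linked UMI, and their part in these values was not tested. The second roof-like cluster, 272 Ptch1cKO barcodes with a median of 1960 UMIs and 2 WT barcodes, held 1 Esrrb UMI in Ptch1cKO and none of the other 5 genes.

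A few barcodes carried most of the Ptch1cKO Esrrb counts. One roof-like barcode with 78291 UMIs held all 6 genes: 7 Esrrb, 1 Kcne1, 2 Kcnq1, 1 Bsnd, 1 Hmx2 and 19 Enpep UMIs. Another with 24996 UMIs held 5 Esrrb, 6 Kcne1, 2 Kcnq1, 3 Hmx2 and 18 Enpep UMIs. The 2 together made up 12 of the 15 Esrrb UMIs (80.0%) and 37 of the 93 Enpep UMIs (39.8%) of the Ptch1cKO epithelium. Kcnq1 was less concentrated, with 16% of its 25 UMIs in its highest 2 barcodes, and the 16 Kcne1 UMIs lay in 11 barcodes. In the WT epithelium the 2 highest barcodes held 6.62% of the Esrrb and 5.50% of the Enpep UMIs, and 27.3% and 13.7% once the low-spread groups were left out.

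Other epithelial clusters held few counts. The hair cell-like cluster had 18 Esrrb, 10 Kcne1, 3 Bsnd, 3 Hmx2 and 43 Enpep UMIs over 232 WT barcodes, and Ptch1cKO had 2 barcodes there. Its 131 WT barcodes outside the low-spread groups had 1 Enpep UMI and 0 UMIs of the other 5 genes. Kcnq1 was spread differently from the rest: in the medial floor it had 20 UMIs over 602 Ptch1cKO barcodes (1.99 CPM) and 12 over 489 WT barcodes (2.02 CPM), with overlapping intervals. The libraries were spread unevenly over its 2 clusters. In cluster 16 Kcnq1 had 17 UMIs over 216 Ptch1cKO barcodes (4.76 CPM, 2.77 to 7.62) and 11 over 384 WT barcodes (2.41 CPM, 1.2 to 4.31), and in cluster 17 it had 3 over 386 Ptch1cKO barcodes and 1 over 105 WT barcodes. The lateral floor-like cluster had 42 Enpep UMIs over 434 WT barcodes (12.7 CPM) and 1 UMI over 39 Ptch1cKO barcodes, which were all low-spread. Outside the low-spread groups it had 29 UMIs over 374 WT barcodes (10.5 CPM).

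Across all cell classes the 6 genes fell into 3 patterns. Esrrb, Kcne1, Bsnd and Hmx2 had few UMIs outside the epithelium. They had 2, 0, 0 and 0 UMIs over 6616 Ptch1cKO barcodes and 16, 12, 0 and 11 UMIs over 4500 WT barcodes. Of these WT counts, 10 Esrrb, 3 Kcne1 and 9 Hmx2 UMIs lay in the 60 barcodes named cartilage, a low-spread group. There Hmx2 stood at 6.19 CPM (2.83 to 11.7) and Esrrb at 6.87 CPM (3.30 to 12.6), overlapping their WT epithelial intervals. A further 5 Kcne1 UMIs lay in WT glia (1.65 CPM, 0.535 to 3.85), against 0 UMIs in 450 Ptch1cKO glial barcodes. Kcnq1 was highest in the endothelium, with 40 UMIs in 27 of 119 Ptch1cKO barcodes (15.2 CPM, 10.9 to 20.7) and 9 UMIs in 7 of 78 WT barcodes (8.48 CPM, 3.88 to 16.1). Pericytes or smooth muscle followed with 7.13 CPM (2.87 to 14.7) in Ptch1cKO and 4.97 CPM (1.35 to 12.7) in WT. Those 2 classes overlap in their intervals in each library, and in Ptch1cKO the endothelium lies above the epithelium without overlap, while in WT those 2 intervals overlap. In neither class do the 2 libraries differ beyond their intervals.

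Enpep had the broadest pattern. In the mesenchyme it had 190 UMIs in 164 of 5648 Ptch1cKO barcodes (3.78 CPM, 3.27 to 4.36) and 121 UMIs in 108 of 3166 WT barcodes (4.62 CPM, 3.84 to 5.53), overlapping intervals. In Ptch1cKO the epithelium as a whole, at 4.58 CPM, did not stand out from the mesenchyme. Its roof-like cluster 20, with 87 of the 93 epithelial Enpep UMIs, lay above the mesenchyme without overlap (26.2 CPM, 21.0 to 32.4). In WT the epithelium at 25.9 CPM lay above the mesenchyme without overlap, also without the low-spread groups (14.2 CPM, 12.2 to 16.6). Pericytes or smooth muscle, at 4.07 CPM in Ptch1cKO and 3.73 CPM in WT, had wide intervals (1.11 to 10.4 and 0.769 to 10.9) that hold the mesenchymal levels. The endothelium had 0 Enpep UMIs in 119 Ptch1cKO and 78 WT barcodes. A low-spread group of 60 WT barcodes led by the vessel genes Cldn5, Vwf and Cdh5 had 13 Enpep UMIs and was counted in the WT epithelium, in the lateral floor-like cluster. In the WT cartilage group of 60 barcodes Enpep stood at 28.9 CPM (20.8 to 39.0), and Ptch1cKO had no such barcodes.

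**Figure D4:**
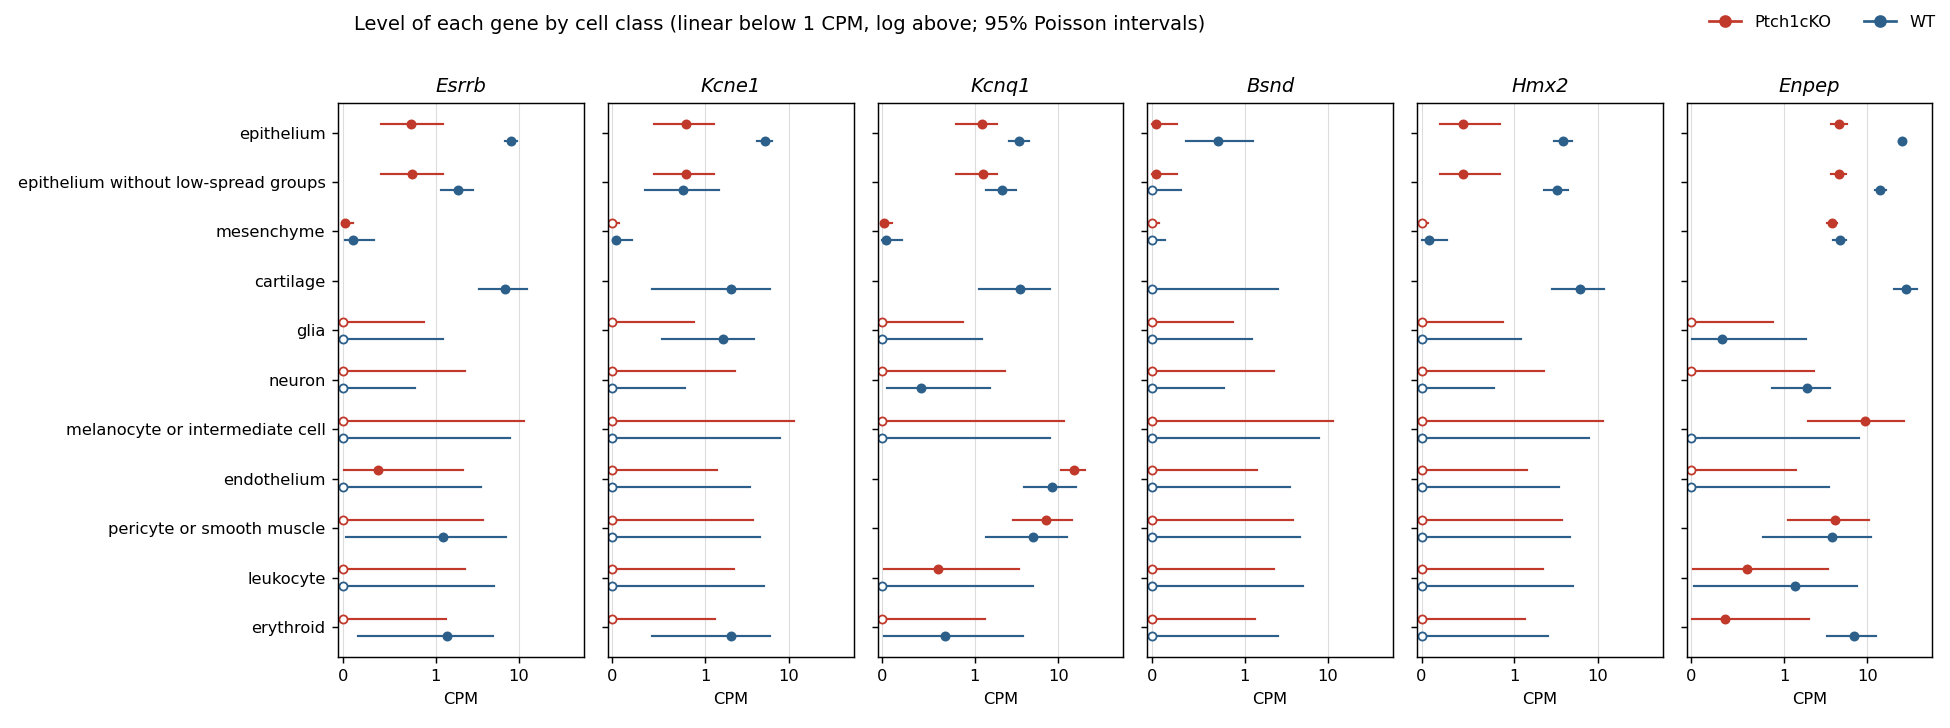
CPM of each gene by cell class on an axis that is linear below 1 CPM and logarithmic above. Points give the summed level of a library and lines the 95% Poisson interval, and open points are classes with 0 UMIs. Most UMIs of Esrrb, Kcne1, Bsnd and Hmx2 lie in the epithelium. In the WT cartilage group, a low-spread group, Hmx2 stands at 6.19 CPM and Esrrb at 6.87 CPM. Kcnq1 peaks in the endothelium at 15.2 CPM in Ptch1cKO, and Enpep is also present in mesenchyme.

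At equal depth fewer Ptch1cKO than WT epithelial barcodes carried any of the 6 genes. With each barcode thinned to 2000 UMIs, 9 of 1379 Ptch1cKO barcodes (0.653%, exact interval 0.299 to 1.24%) and 105 of 1609 WT barcodes (6.53%, 5.37 to 7.84%) had such a UMI, and 676 Ptch1cKO and 0 WT barcodes were too shallow. Unthinned, the shares were 2.43% and 14.7%. With the low-spread groups left out the thinned shares were 0.659% of 1365 Ptch1cKO and 4.14% of 1136 WT barcodes. Mesenchyme, where Enpep was detected, had 0.740% in Ptch1cKO and 0.884% in WT. Each thinned share comes from 1 random draw. Leaving out Enpep, epithelial shares were 0.508% in Ptch1cKO (0.204 to 1.04%) and 3.23% in WT (2.42 to 4.22%). Outside the low-spread groups they were 0.366% and 2.2%, where the shares expected over all draws were 0.510% in Ptch1cKO and 1.58% in WT. The mesenchymal shares were then 0.019% in Ptch1cKO (up to 0.108%, median 8898 UMIs before thinning) and 0.095% in WT (up to 0.277%, median 7215.5), below the epithelial shares without overlap. In the roof-like epithelium the thinned shares for all 6 genes were 5 of 219 Ptch1cKO barcodes (2.28%) and 29 of 109 WT barcodes (26.6%). These classes are unlike, as the second roof-like cluster had 272 shallow Ptch1cKO and 2 WT barcodes before thinning. No thinned share was taken for cluster 20 alone. Unthinned, Enpep was in 15.4% of its Ptch1cKO barcodes (median 20750 UMIs) and 51.4% of its WT barcodes (median 6269 UMIs).

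Co-detection followed the same barcodes. At least 2 of the 6 genes were found in 6 of 2055 Ptch1cKO epithelial barcodes (0.29%, 0.11 to 0.63%), with a median of 51650.5 UMIs. In WT they were found in 100 of 1609 (6.22%, 5.09 to 7.51%), with a median of 11549.5 UMIs, and 54 of those 100 were in cluster 25. In WT 27 barcodes had 3 of the genes, 11 had 4, 9 had 5 and 0 had 6. Outside the low-spread groups 6 of 2016 Ptch1cKO (0.30%) and 31 of 1136 WT barcodes (2.73%, 1.86 to 3.85%) had at least 2. Outside the epithelium it was 1 of 6616 in Ptch1cKO and 11 of 4500 in WT, or 1 of 4440 in WT without the low-spread groups. Barcodes of 1 library share their source and are not replicates, and the deeper barcodes have more chances to show a second gene.

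**Figure D5:**
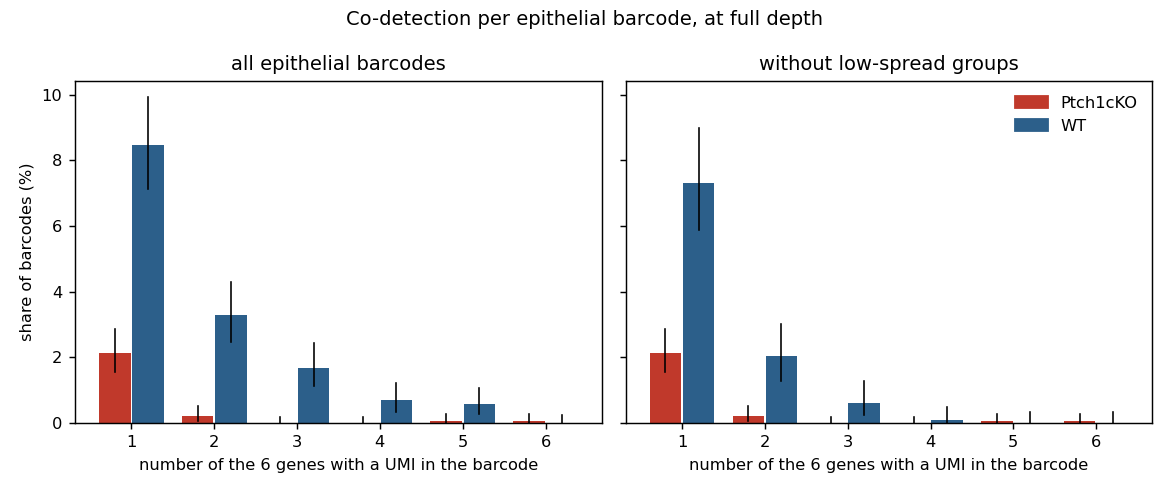
Share of epithelial barcodes, in percent, with UMIs of 1 to 6 of the genes at full depth, for all barcodes and without the low-spread groups. Lines are exact 95% intervals. WT bars for 3 or more genes come mostly from low-spread groups, and Ptch1cKO has 1 barcode with 5 genes and 1 with all 6.

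In the WT epithelium Enpep was common in barcodes with Esrrb. There 62 of the 79 barcodes with Esrrb also had Enpep (78.5%), against 116 of 1530 without Esrrb (7.58%), at medians of 11514 and 7595 UMIs. Outside the low-spread groups this was 15 of 18 (83.3%) against 66 of 1118 (5.90%). Hmx2 and Esrrb shared 6 of the 24 Hmx2 barcodes there (25%), against 12 of 1112 barcodes without Hmx2 (1.08%). Hmx2 and Enpep shared 14 of 24 (58.3%), against 67 of 1112 (6.03%). Of these barcodes outside the low-spread groups, 14 of the 18 with Esrrb and 20 of the 24 with Hmx2 lay in the roof-like cluster 20. There Enpep was in 55 of 107 WT barcodes (51.4%), so these contrasts also set that cluster against the other epithelium. Rates within cluster 20 are not given here. The channel pair was different: Kcnq1 was found in 15 of the 52 WT barcodes with Kcne1 (28.8%) and in 32 of 1557 without (2.06%), but in 0 of 8 and 23 of 1128 (2.04%) once the low-spread groups were left out. A count of 0 of 8 does not show that they are apart. Inside cluster 25 Enpep was as common without Esrrb, 38 of 44 barcodes with Esrrb having Enpep (86.4%) against 15 of 16 without Esrrb (93.8%). In Ptch1cKO 2 of the 5 barcodes with Esrrb had Enpep, 2 had Kcne1 and 3 had Hmx2.

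The genes that marked co-detecting barcodes mostly differed between the libraries. Of the 6 such Ptch1cKO barcodes 5 were roof-like, and of the 100 in WT 54 were in cluster 25. In the 6 Ptch1cKO barcodes, against the other Ptch1cKO epithelium, the highest ratios were those of Ccdc3 (107 and 1.45 CPM), Dkk2 (202 and 4.10 CPM), a Wnt antagonist, and Ecel1 (756 and 25.3 CPM). Pi15, Lrp2, Nr4a3, Msx1, Csrnp1, Parm1 and Zfp503 completed the 10. In the 100 WT barcodes they were Mlana (32.4 and 0.324 CPM), Bpifb3, Dct, Pmel, Gsc, Slc45a2, Tyr, Krt80, Pcdh20 and Hmx3, of which Mlana, Dct, Pmel, Slc45a2 and Tyr are pigment cell genes. Once the low-spread groups were left out, the 31 WT barcodes gave Scg2 (81.9 and 2.57 CPM), Pcdh20, Gsc, St8sia3, Hgf, Ccdc3, Kctd8, Plscr2, Aqp5 and Pbld1, with no pigment gene among the 10. Ccdc3 (168 and 8.94 CPM in these WT barcodes) was thus shared with the Ptch1cKO list.

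By likeness over 17 columns of 1 class in 1 library each, with 9 classes and log2(CPM + 1), the closest genes to Esrrb were Acp7, Sfn and Bpifb3 (Pearson r 0.951, 0.916 and 0.907). Those of Hmx2 were Bpifb3, Eprn and Padi1 (0.997, 0.981 and 0.981), and those of Kcne1 Ppp1r36, Shisal2b and Abcg5 (0.893, 0.892 and 0.886). Kcnq1 went with Esam, Igfbp7 and Adgrf5 (0.948, 0.924 and 0.924), of which Esam and Igfbp7 are known from vessel walls. Enpep went with Lmod1, 3930402G23Rik and Rspo3 (0.921, 0.894 and 0.878), and Bsnd with Gad2, Chrna9 and Gm4131 (1.00, 0.990 and 0.990). Columns of 1 library share its depth, most are near 0 for these genes, and Bsnd was above 0 in the epithelial columns alone. The WT cartilage column consists of a low-spread group alone, and Lmod1 was among the genes that led that group. Bpifb3 was among the genes that led cluster 25 against other epithelium. The part of the low-spread groups in these correlations was not tested.

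Other genes of marginal cells were mostly within 2-fold between the libraries in the epithelial sums. These sums take in all epithelial barcodes, so they do not give levels in marginal cells. Of 16 listed ion transport and differentiation genes, 14 had at least 10 epithelial UMIs. In Ptch1cKO 0 were lower by 2-fold or more and 1 higher by as much, beside 12.0% of all genes lower and 5.63% higher. Their median log2 ratio was 0.15 against 0.03 over all genes. The sodium pump subunit gene Atp1b1 had 233 CPM in Ptch1cKO, against 202 CPM in WT. The uptake cotransporter Slc12a2 had 143 CPM in Ptch1cKO and 153 CPM in WT, and the potassium channel gene Kcnk1 84.3 and 113 CPM. Atp13a5 had the highest ratio, 2.82 (17 UMIs in Ptch1cKO and 5 in WT), and Wnk2 the lowest, 0.732. With the low-spread groups left out the counts were again 0 lower and 1 higher of 14, beside 9.02% and 5.96% of all genes. With mixed barcodes left out they were 2 lower and 1 higher of 14, beside 8.86% and 6.96%. The median log2 ratio was then -0.38 against 0.00 over all genes.

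Relatives of the 6 genes were lower in part. Of 16 relatives in the files 13 had enough UMIs, 4 of them lower by 2-fold or more and 0 higher, with a median log2 ratio of -0.21, where 12.0% of all genes were lower and 5.63% higher. Hmx3, the neighbour and paralog of Hmx2, had 32 UMIs in Ptch1cKO and 76 in WT, a ratio of 0.349 (0.22 to 0.53). Esrrg had 15 and 54 UMIs, a ratio of 0.230, and Anpep 19 and 40, a ratio of 0.393. Kcne3 had the highest ratio, 1.48, and Esrra, Lnpep, Rnpep and Npepps lay between 0.845 and 1.18. Outside the low-spread groups the same number, 4, were lower by that much and 1, Kcne3 at 2.28, higher. Over all genes 9.02% were lower there and 5.96% higher. Hmx3 was at 0.374 (50 UMIs in WT).

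Genes of neighbouring cells in the duct gave 2 of 6 lower by 2-fold or more and 0 higher, beside the same 12.0% of all genes lower. Outside the low-spread groups it was again 2 of 6 and 0, beside 9.02% of all genes lower. With mixed barcodes left out it was 2 lower and 1 higher of 5, beside 8.86% of all genes lower and 6.96% higher. Anxa1 had 12 UMIs in Ptch1cKO and 93 in WT (ratio 0.107), or 12 and 19 UMIs (ratio 0.369) without the low-spread groups, and Epyc 240 and 933 CPM (ratio 0.257). Slc26a4, the spindle and root cell anion exchanger, had 6.60 and 5.77 CPM, Dpp10 7.34 and 9.94 CPM, and Lgr5 the highest ratio, 1.59. Of 3 measured partners of Enpep in the renin-angiotensin system, 2 were at least 2-fold lower, beside 12.0% of all genes. These were Agtr2 (0.163) and Ace (0.146), and Mme (0.605) was not. Without the low-spread groups their ratios were 0.190, 0.206 and 0.635, where 9.02% of all genes were lower. With mixed barcodes left out 2 of 2 measured partners were lower, beside 8.86% of all genes. Agtr2 and Mme were also among the genes that led mesenchymal clusters, and the part of mixed barcodes was not tested.

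Vessel and mural genes were lower in part in the epithelial sums as well. Of 8 such genes 5 were lower by 2-fold or more and 1 higher by as much in Ptch1cKO. Over all genes 12.0% were lower and 5.63% higher. The median log2 ratio of the 8 was -2.79. Cldn5 had the lowest ratio, with 0.739 CPM in Ptch1cKO and 25.9 CPM in WT, Cdh5 had 0.936 and 16.8 CPM, and Pecam1 1.63 and 15.3 CPM. Rgs5 had 29.9 and 36.2 CPM, and Kcnj8, a pericyte gene, was highest by ratio at 2.50. With the low-spread groups left out Cldn5 was at 0.692 and 3.98 CPM and Rgs5 turned to a ratio of 2.91. Of the 8 genes 5 were then lower and 2 higher, beside 9.02% and 5.96% of all genes. With mixed barcodes left out 2 of 6 were lower and 2 higher, beside 8.86% and 6.96% of all genes. The median log2 ratio was then 0.09, and -2.57 for the 4 measured members of the 6 genes. Cdh5, Pecam1, Kdr and Cldn5 are among the genes that define mixed barcodes. This setting thus removes barcodes for carrying them, and the 2 medians cannot be set side by side. The part of vessel and mural genes in the differences of Enpep and Kcnq1 was not tested.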

How the data were processed

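The deposited values are whole UMI counts for each gene in each barcode, with no normalization, from droplet libraries of RNA 3' ends. The genome build mm10 and Cell Ranger 6.0.0 come from the submitters' processing notes, while the file headers name Cell Ranger 6.0.0 for WT and 5.0.1 for Ptch1cKO. The labels name kit version 3.1 for WT and 3.2 for Ptch1cKO in the descriptions. Library, kit and version cannot be told apart from genotype.

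Barcodes with at least 1000 UMIs, 500 genes and at most 10% mitochondrial UMIs passed. Scrublet called 0 and 0 doublets, so it had not worked, and the 0.8% per 1000 barcodes with the highest scores were removed (702 Ptch1cKO, 331 WT). The libraries were joined without batch correction and clustered in scanpy 1.11.5 (igraph 0.11.9; 2000 variable genes without the 6 genes, 30 components, 15 neighbours, Leiden resolution 1 with 2 as an alternative), and named from 18 marker sets by a scoring rule revised after the data were seen, as was the separate cartilage class. Mixed barcodes had over 5 UMIs per 10000 from 24 genes of 5 lineages outside their own. Class sums are CPM with exact Poisson intervals, shares have exact Clopper-Pearson intervals and ratios exact conditional binomial intervals (scipy 1.17.1). Intervals were tested on simulated data. No test was run, with 1 library per genotype.

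The 6 genes, the gene lists and the alternatives were chosen with earlier results of these data known, and the low-spread groups, their limit of 1.1, the settings that use them and the rule of no ratio at 3 or fewer UMIs in both libraries after the data were seen. The 6 genes are always named. Of each list the 4 genes with the most UMIs and the highest and lowest ratio are named, with 3 like genes per gene and 10 genes of co-detecting barcodes. Hmx3, Esrrg and Anpep in the list of relatives, and the genes given for cluster 25, were chosen after their values were seen. Values of some genes that this rule names are not reported here.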

Additional observations from a re-analysis of the deposited data

How the results depend on the processing

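The ratios of Esrrb, Hmx2 and Enpep stayed below 1 in each setting run. That of Bsnd did so too, but it could be given only where the low-spread groups, which hold all 12 of its WT UMIs, were kept. All 6 genes remained at least 2-fold lower under another scaling, total, UMI minimum, doublet step, epithelial definition or clustering resolution. Without the low-spread groups the ratio was 0.398 for Esrrb, 1.04 for Kcne1 (reversed) and 0.320 for Enpep, and 3 genes were at least 2-fold lower. With barcodes over 5 mixed UMIs per 10000 left out, which leaves 521 Ptch1cKO and 97 WT barcodes, it was 0.210 for Esrrb, 1.51 for Kcne1 (reversed, from 8 and 2 UMIs) and 0.136 for Enpep. With both left out these were 0.209, 1.504 (reversed) and 0.136. At a limit of 10, Esrrb was at 0.183 and Kcne1 at 0.339. Thinned to 2000 UMIs in 1 random draw, Esrrb was at 0.040 and Enpep at 0.058. With 1 CPM added to both values, Esrrb was at 0.191, Kcne1 at 0.290, Bsnd at 0.612, Hmx2 at 0.297 and Kcnq1 at 0.508, and 4 genes were at least 2-fold lower. Over all kept barcodes Kcnq1 was at 0.627 and Enpep at 0.314. Over all kept barcodes without the low-spread groups, Esrrb was at 0.361, Kcne1 at 0.528, Kcnq1 at 1.05 (reversed) and Enpep at 0.552, and 2 genes were at least 2-fold lower. The cause of these changes was not tested, beyond that each setting uses other barcodes, fewer UMIs or a pseudocount.

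The WT share of epithelial barcodes with a UMI of the 6 genes was 5.03% by a UMI of Epcam or Cdh1, 11.3% without barcodes over the limit of 5, 3.73% at 1000 UMIs, 10.7% at 4000 UMIs, 3.23% without Enpep and 4.14% without the low-spread groups. The Ptch1cKO share was 1.49% at 4000 UMIs. No paired analysis was possible because each genotype has 1 library and no test was run. Depth limits Bsnd most, with 13 UMIs in both libraries together.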
